A study of Caenorhabditis elegans with 2 samples.

Results

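HLH-1 is the muscle-determining basic helix-loop-helix (bHLH) factor of Caenorhabditis elegans and a relative of vertebrate MyoD. The peaks described here are those of an HLH-1 chromatin immunoprecipitation sequencing (ChIP-seq) experiment whose summit, the position the authors gave as the high point of the peak, lay inside an annotated exon of a protein-coding gene. There were 261 such peaks among the 3254 peaks of the authors' reproducible list on the ce11 genome, or 8.02% (95% Wilson interval 7.14 to 9%), against 813 peaks with an intronic summit and 2180 with a summit outside protein-coding genes. The chromatin came from whole embryos of mixed stages and sexes of the strain OP64, which carries unc-119(ed3) III and the transgene array wgIs64, the source of HLH-1 fused to eGFP. There was 1 group with 2 biological replicates and no comparison condition, and a control library exists that was not analysed here. Because whole embryos hold every tissue, a peak cannot be assigned to a cell type, and because the strain carries extra copies of hlh-1, the native gene and the transgene cannot be told apart at that locus.

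Factors of the MyoD family bind DNA as dimers at E-boxes, short sites of the form CANNTG, most often in promoters and distal enhancers. Exons are mostly protein-coding sequence, which is read for codons, and are flanked at the ends of a transcript by untranslated regions (UTRs) that are kept in the mRNA but not translated. In C. elegans many mRNAs are trans-spliced to a short leader that replaces the original 5′ end of the transcript, so the annotated first base of a gene is often not the base where transcription began. Worm genes are also closely packed, and the 3′ UTR of one gene often lies near the promoter of the next.

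The sites below show the E-box CAGCTG, in capitals, at the best-scoring exonic summits that held it on the chromosomes from which sequence is shown. All are from the RefSeq sequence of WBcel235, the assembly also called ce11, and read 5′ to 3′ on the strand of the host gene. The first set lay in coding exons.
pgp-10 (chrX:7162910-7162939, plus strand): cagcaacaccaaCAGCTGcaccagcaacag
M163.1 (chrX:14503435-14503464, minus strand): gacctctttgaaCAGCTGctggcggagaac
F25E2.3 (chrX:812484-812513, minus strand): cgttggcggcagCAGCTGccaccgtggaag
K04G11.1 (chrX:14335820-14335849, plus strand): gccgctggacatCAGCTGttccgagcagtt
efa-6 (chrIV:12614123-12614152, minus strand): attcacccacatCAGCTGtcaagagccacc
The second set lay in 5′ UTRs.
unc-62 (chrV:4508005-4508034, plus strand): gatggatcgccgCAGCTGgcgacgttgaca
T10G3.1 (chrV:13473627-13473656, minus strand): gacgacatgtgtCAGCTGctcaacaatttc
C18D11.3 (chrIII:11823461-11823490, plus strand): catgtgtgtcgtCAGCTGattcgtcaagtc
C08F1.11 (chrII:1784509-1784538, minus strand): tttaaaggtcaaCAGCTGctctcccctctg
spk-1 (chrIII:9457537-9457566, plus strand): ttttctctctgtCAGCTGtctcctcttcgc
The distance from the middle of the site to the summit was 0.5 bp in K04G11.1, 1.5 bp in C18D11.3 and 29.5 bp in pgp-10.

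Exonic summits were mostly in 5′ UTRs or coding exons. A summit in any annotated coding sequence was called coding, then 5′ UTR, then 3′ UTR. By this order 125 summits lay in a 5′ UTR, 104 in coding sequence, 27 in a 3′ UTR and 5 in an exon of a transcript without coding sequence. These classes cover very different lengths of the genome. The 5′ UTRs make up 1.43% of the nuclear genome and held 3.84% of all summits, or 87.3 summits per Mb. Coding sequence makes up 24.6% of the genome and held 3.2% of the summits, or 4.21 per Mb. The 3′ UTRs held 7.98 summits per Mb, introns 24.5 and intergenic sequence 58.2. So the density in 5′ UTRs was the highest of the 5 places, and that in coding exons the lowest. These densities describe positions, which the choice of peaks itself used, and carry no test.

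**Figure D1:**
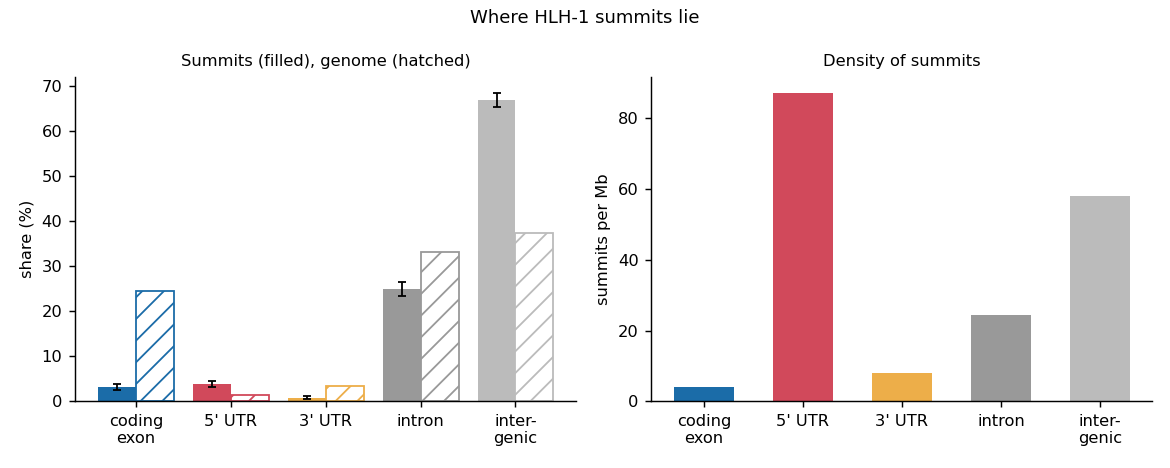
Left, share of the 3254 summits (filled bars, 95% Wilson intervals) and of the nuclear genome (hatched bars) in coding exons, 5′ UTRs, 3′ UTRs, introns and intergenic sequence, in percent; right, summits per Mb in each place. The 5′ UTRs stand highest at 87.3 summits per Mb and coding exons lowest at 4.21.

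Within the host transcripts more summits lay in first exons than in later ones. Most of those in first exons were 5′ UTR summits, whose class largely fixes the exon. The share of exon sequence that lies in first exons was not computed, so these counts are a description only. Of 261, 149 were in the first of several exons, 59 in an internal exon, 45 in the last exon and 8 in the exon of a single-exon gene. Nearly all 5′ UTR summits, 121 of 125, were in a first exon, and 26 of the 27 3′ UTR summits were in a last exon. Coding summits were spread differently, with 52 of 104 in internal exons, 25 in first exons, 19 in last exons and 8 in single-exon genes. The exon number is that of the transcript with the longest coding sequence among those that give the summit its class.

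The annotated start of the host gene, taken as its most 5′ base, lay within 500 bp of the summit for 132 members (50.6%). For 42 members the start of another protein-coding gene lay within 500 bp, in every case downstream of the summit in that gene's direction. A gene with an exon at the summit was a host and was not counted here, which largely fixed that direction beforehand. Neither held for 112 members (42.9%). A start of any protein-coding gene lay within 500 bp of 57.1% of exonic summits, against 11.2% of intronic, 45.1% of intergenic and 37.6% of all summits.

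Distances to starts differed between exon classes, which the place of each class within a gene largely sets. No background of exon sequence was computed for these distances, and they carry no test. The 5′ UTR summits had a median of 86 bp to the host's start, and 69 of 125 were within 100 bp of it. The remaining tail was long, since 33 lay over 500 bp from the gene's most 5′ base. For 26 of those 33, a start of another annotated transcript of the host was within 500 bp. Coding summits had a median of 1152 bp, and 67 of 104 (64.4%) had no start of any gene within 500 bp. The 3′ UTR summits had a median of 2740 bp to their own host's start. They were closer to the next gene, with 13 of 27 less than 500 bp upstream of another gene's start and 22 of 27 within 2000 bp.

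**Figure D2:**
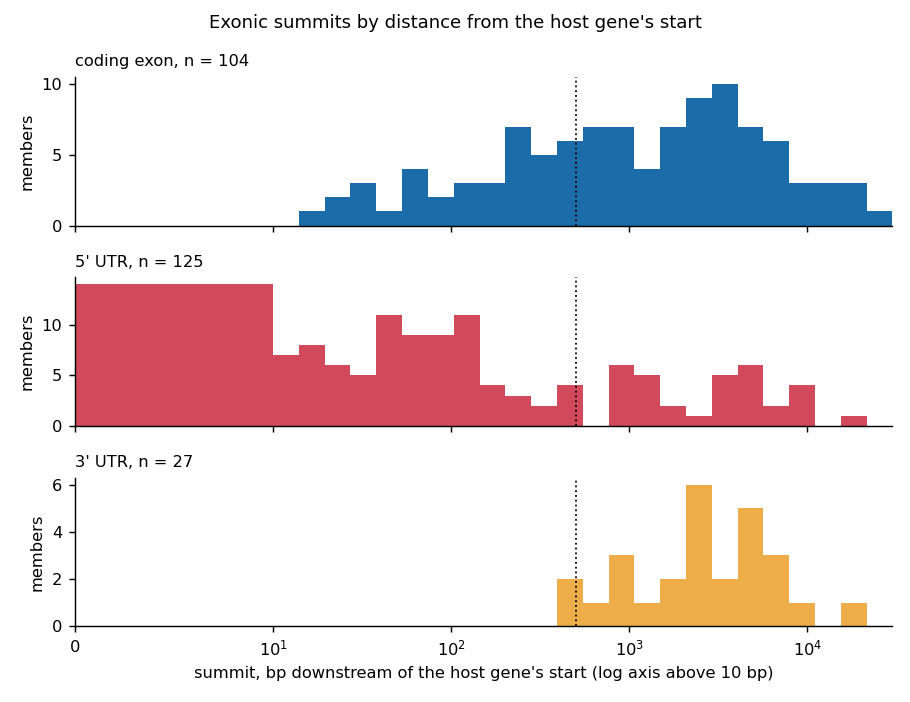
Number of exonic summits (vertical axis) by distance downstream of the host gene's start in bp (horizontal axis, linear to 10 bp and logarithmic above), for coding exons, 5′ UTRs and 3′ UTRs. The dotted line marks 500 bp; most 5′ UTR summits lie left of it and nearly all 3′ UTR summits right of it.

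The authors' score, whose scale the sources used here do not state, ranked peaks within the pooled list. Scores of different lists are on scales of their own. Exonic scores ran between 32.5 and 225 with a median of 52, against a maximum of 965 and a median of 55.7 over all peaks. The medians were 52 in 5′ UTRs, 52.5 in coding exons and 44.3 in 3′ UTRs, against 55.9 in introns and 56.1 in intergenic sequence. A score above the median of the whole list was found in 119 of 261 exonic peaks (45.6%) and 1508 of 2993 other peaks (50.4%), -4.79 percentage points apart, which did not pass a two-sided Fisher's exact test (Benjamini-Hochberg adjusted over 6 measures, adjusted p = 0.311). In the list of replicate 2 alone the same difference was -9.83 points (Fisher's exact test, adjusted p = 0.00645), and in that of replicate 1 alone it was -24.2 points (Fisher's exact test, adjusted p = 3.36e-32).

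The exonic share by score was 7.08% in the strongest 650 peaks, then 6.77%, 6.92%, 10.6% and 8.72% in the next 4 parts of the list. Of the 3254 pooled peaks that came next by score and had not passed the reproducibility threshold, 20.9% had an exonic summit. The exons used here cover 29.5% of the nuclear genome.

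The replicates' own lists differed in this share. In the top 3254 peaks of replicate 1, 793 summits (24.4%) were exonic, 641 of them coding. In the top 3254 peaks of replicate 2, 266 (8.17%) were exonic, 100 of them coding. The strongest 650 peaks were alike in this respect, with 54 exonic summits (8.31%) in replicate 1 and 48 (7.38%) in replicate 2. By the last part of each list the shares were 35% and 10.1%. A top peak of the other replicate overlapped 68 (10.6%) of the 641 coding peaks and 72 (63.2%) of the 114 5′ UTR peaks in replicate 1. Among non-exonic peaks of that list the share was 59%, so the low share was that of the coding peaks. Most exonic peaks in the replicate 1 list were thus coding peaks that the replicate 2 list did not hold. In the replicate 2 list the shares were alike, at 47% of coding, 45.1% of 5′ UTR and 48.5% of non-exonic peaks. The number of exonic peaks in any one list depends on which replicate made it.

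**Figure D3:**
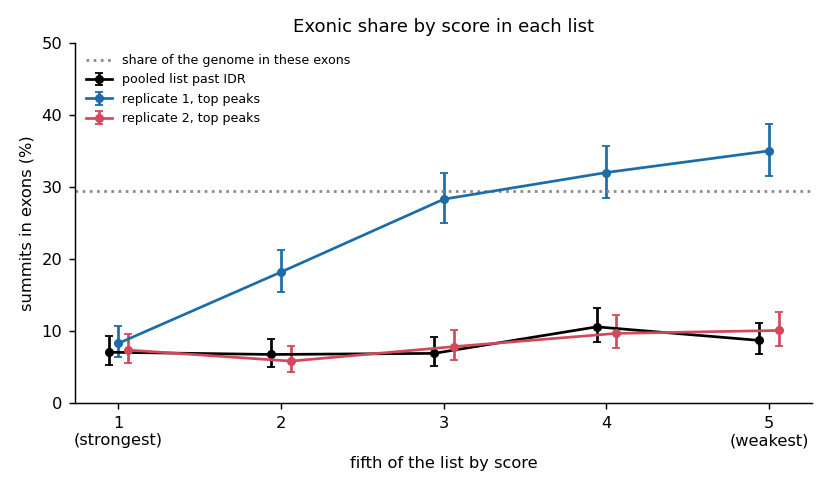
Share of summits in exons (percent, 95% Wilson intervals) in 5 successive parts of each list by score, strongest at the left, for the reproducible pooled list (black) and the top 3254 peaks of replicate 1 (blue) and replicate 2 (red). The dotted line is the share of the genome in these exons, 29.5%; the replicate 1 list climbs to 35% and the other lists stay near 10% or lower.

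Of the 261 exonic peaks, 213 (81.6%) overlapped a peak in the relaxed list of replicate 1, and all 261 did so in replicate 2. Over all 3254 peaks, 83.2% did so in replicate 1 and 3253 peaks in replicate 2. In the top 3254 peaks the exonic counts were 128 (49%) in replicate 1 and 239 (91.6%) in replicate 2. These shares were near the 51.5% and 93.7% of all peaks. A top peak in both replicates was overlapped by 116 exonic peaks (44.4%) and 1451 of 2993 other peaks (48.5%), with 48.2% over all peaks. The difference of -4.04 points did not pass Fisher's exact test (adjusted p = 0.33). By class, 49 of 104 coding, 58 of 125 5′ UTR and 7 of 27 3′ UTR members met this. Across the 213 members found in both relaxed lists, the scores of the replicates had a Spearman rho of 0.399 and a Pearson r of 0.443 on log10 values. Across the 2493 other peaks these were 0.472 and 0.541. These are correlations across peaks of the same 2 libraries, and peaks are not independent replicates.

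**Figure D4:**
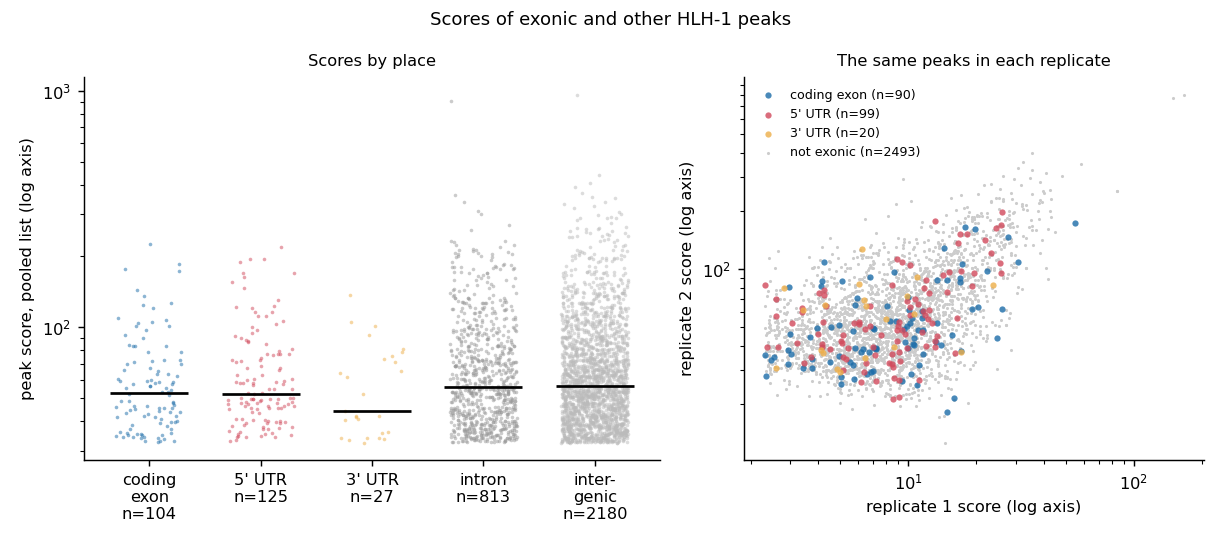
Left, score in the pooled list (log axis) of each peak by place, with the median as a bar; right, score of the same peaks in replicate 1 and replicate 2 (log axes), exonic classes in colour and other peaks in grey. Exonic peaks reach 225, under the highest peaks of introns and intergenic sequence, and share the cloud of the other peaks.

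The 20 highest-scoring exonic peaks held ranks 53 to 329 in the pooled list. There were 10 in 5′ UTRs, 8 in coding exons, 1 in a 3′ UTR and 1 in an exon of a transcript without coding sequence. A summit within 500 bp of the host's start was found in 12, CAGCTG within 50 bp of the summit in 11, and overlap with a top peak of both replicates in 19. Such overlap is common among high scores, by which these 20 were picked. Of non-exonic peaks in the strongest 650 of each replicate, 95.8% in replicate 1 and 83.7% in replicate 2 overlapped a top peak of the other. Shares among other peaks of like rank in the pooled list were not computed.

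The highest exonic peak lay deep in pgp-10, a member of the P-glycoprotein family of membrane transporters, at position 7162954 of chromosome X. The summit was in exon 16 of 29, a coding exon of 117 bp, 3918 bp from the start of the gene. It scored 225 in the pooled list, 54.7 in replicate 1 and 173 in replicate 2. It ranked 5 in replicate 1 and 94 in replicate 2, so both replicates placed it near the top. The nearest start of another gene, C54D1.7, was 6919 bp away, and the CAGCTG shown above lay 29.5 bp from the summit.

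Other internal coding exons followed. The pks-1 peak, in a polyketide synthase gene, lay in exon 22 of 30, 15737 bp from the gene's start, and scored 185 in the pooled list, 19.7 in replicate 1 and 162 in replicate 2. It held no CAGCTG within 50 bp of the summit. The F25E2.3 peak lay in exon 4 of 9 and scored 143. The C34F6.1 peak lay in exon 9 of 12, 2924 bp from the gene's start, and scored 126. The csk-1 peak, in the gene of a worm C-terminal Src kinase, lay in exon 7 of 13 and scored 109. All 5 of these peaks overlapped a top peak in both replicates.

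Single-exon and first-exon coding peaks also ranked high. Y44E3A.1, on chromosome I, had its summit 90 bp from its start in the first of 5 exons and scored 176. M163.1, a single-exon gene, scored 173, with 27.8 in replicate 1 and 147 in replicate 2. K04G11.1, also a single-exon gene, scored 136 and ranked 49 in replicate 1 and 332 in replicate 2. The peak in sft-1, a relative of the surfeit-1 genes, lay 32 bp from the gene's start and scored 124.

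Over all coding members, 67 had no gene start within 500 bp. Of these, 46 were in internal exons, 16 in last exons and 5 in first or single exons. Chromosome X, which held the most peaks of the list (773 of 3254), had 25 of them. Their median score was 51.4, and 30 (44.8%) overlapped a top peak in both replicates. For 7 of them a start of another annotated transcript of the host was within 500 bp. That left 60 more than 500 bp from every annotated protein-coding transcript start, some only just, such as Y73B3A.1 at 502 bp.

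In 5′ UTRs the highest score was 219, in srh-2, a gene of a chemoreceptor family. Its summit lay in the first exon of a transcript that begins well inside the gene, 3175 bp from the gene's most 5′ base. It scored 26.1 in replicate 1 and 198 in replicate 2. The unc-62 peak, in the gene of a TALE homeodomain factor of the Meis family, scored 194, with 25.8 in replicate 1 and 170 in replicate 2. T10G3.1 also scored 194, 28 bp from its start, where an exon of T10G3.8 overlaps. pat-10, which encodes troponin C of body wall muscle, had its summit 125 bp from its start, in the first exon. It scored 189 in the pooled list, 24.4 in replicate 1 and 164 in replicate 2. Ranks of 137 and 114 put the pat-10 peak high in both replicates.

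More 5′ UTR peaks of the top 20 lay close to their host's start. spp-15, a saposin-like protein gene, scored 170 at 65 bp. acs-16, of the acyl-CoA synthetase family, scored 169 at 158 bp. mab-20, a semaphorin, scored 163 with its summit on the first base of the exon. lgc-34, of the ligand-gated ion channel family, scored 155 at 7 bp. C18D11.3 scored 146 at 29 bp, and nhr-64, a nuclear hormone receptor, scored 130 at 95 bp. ptr-12, a patched-related gene, held the only top 20 summit in an exon of a transcript without coding sequence, with a score of 205.

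In 3′ UTRs the highest score was 137, in ZK721.3. It scored 6.26 in replicate 1 and 128 in replicate 2, and ranked 4025 and 222 there, the only top 20 member outside the top list of a replicate. The start of the next gene, unc-27, which encodes a troponin I, lay 2589 bp downstream of the summit. bltp-2 scored 105, 475 bp upstream of the start of cyn-5. adal-1 scored 101, 1609 bp upstream of acer-1. K07C5.13 scored 92.9, 384 bp upstream of K07C5.3, and dcn-1, of a family that acts in cullin neddylation, scored 80.9, 483 bp upstream of tag-131. The dcn-1 peak ranked 22667 in replicate 1 and 680 in replicate 2.

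The edges of exons split some peaks from the set by a few bases. There were 27 members less than 10 bp inside an exon boundary, the highest being mab-20 at 163, lgc-34 at 155 and ikb-1 at 116. Another 36 peaks had their summit at most 10 bp outside an exon, the highest at F53F10.1 with 203, glr-8 with 201 and an intron of unc-119 with 166. The median scores were 49.7 for the 27 inside and 51.9 for the 36 outside.

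With 1 host counted per member, the 261 members lay in exons of 254 host genes, 1.27% of the 19973 protein-coding genes. One exonic summit was found in 248 hosts. Another 5 genes, each sharing the summit of a member with its host, were not counted in the 254 or in the gene lists below. The hosts with a pair of exonic summits were F01F1.3, R04B5.6, ergi-3, pcs-1 and ttr-54, and unc-62 had 3. In pcs-1, a phytochelatin synthase gene, the summit in the last exon scored 105 and that in the first exon 39.3. In ergi-3 the 3′ UTR summit scored 71 and the 5′ UTR summit 48.2. In unc-62 the summits scored 62.7, 37.5 and 194 along the gene, all in 5′ UTR exons of some transcript. The first 2 of these were absent from the relaxed list of replicate 1. Hosts had a median length of 3384 bp against 2027 bp for all genes, and 59 hosts (23.2%) also had a summit in the 2000 bp upstream, against 12% of all genes. The part of gene length in the upstream count was not tested.

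**Figure D5:**
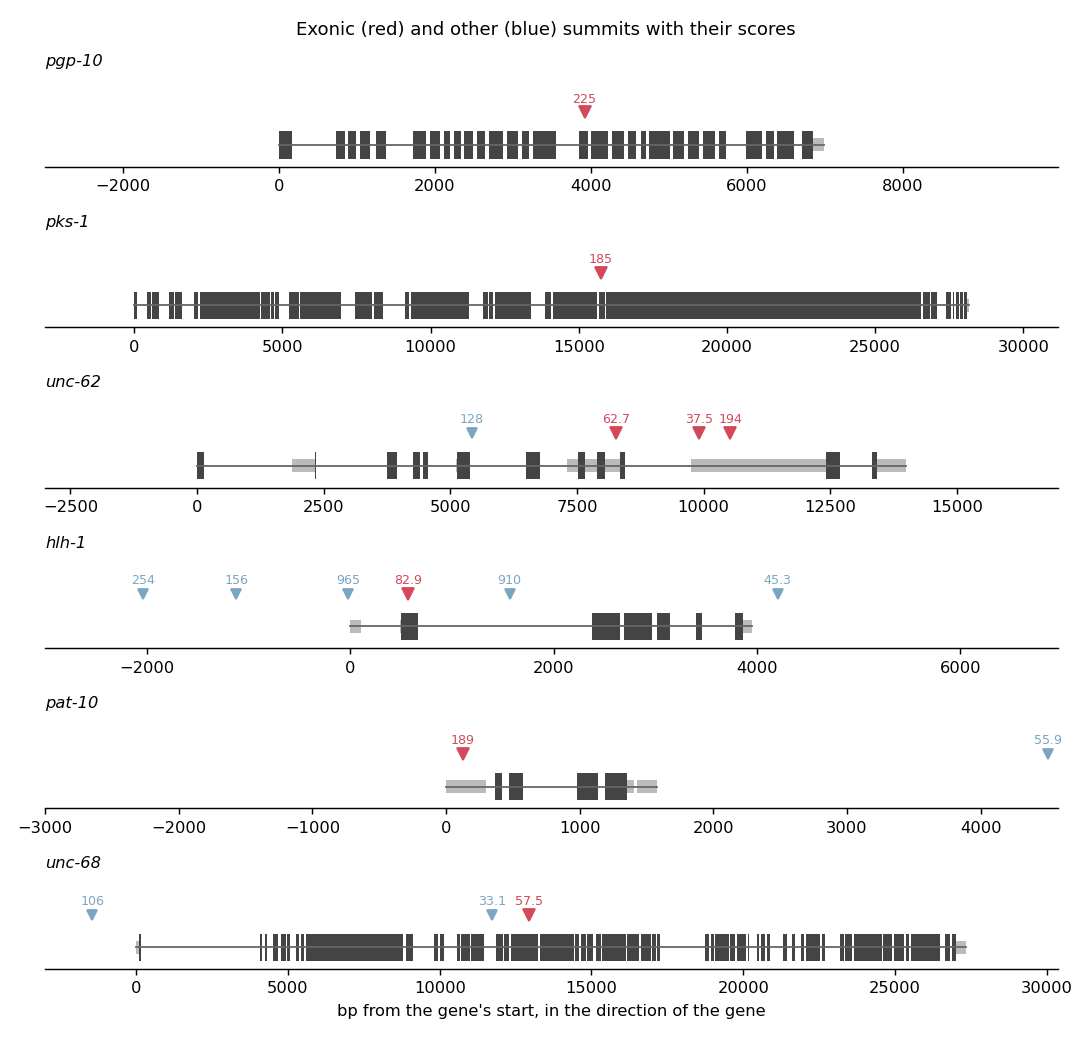
Gene models of 6 hosts in bp from the gene's start (horizontal axes, each at its own scale), with coding exons as tall dark boxes, UTRs as low grey boxes, exonic summits as red triangles and other summits as blue triangles, each with its score. In pgp-10 and pks-1 the only summit lies inside the gene far from its start, and in hlh-1 the exonic summit of 82.9 lies between summits of 965 and 910.

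Of 82 genes in 3 muscle lists, 5 (6.1%) hosted an exonic summit, beside 1.27% of all protein-coding genes, and the difference was not tested. From the sarcomere list these were 2 of 30, pat-10 and the actin gene act-4. From the attachment list they were 2 of 28, the laminin beta gene lam-1 and the talin gene tln-1, and from the list of excitation and calcium handling 1 of 24, the ryanodine receptor gene unc-68. pat-10 scored 189, and the other 4 were lower, with unc-68 at 57.5, act-4 at 49.3, lam-1 at 38 and tln-1 at 32.6. The pat-10 and unc-68 peaks overlapped a top peak in both replicates, and those of act-4, lam-1 and tln-1 did not. The unc-68 summit lay in exon 17 of 49, 12946 bp from the start, with other summits of 106 upstream of the gene and 33.1 in an intron. The act-4 summit was 10 bp from the gene's start, had no peak in the relaxed list of replicate 1, and scored 44.5 in replicate 2.

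The exonic summit of hlh-1 itself lay in coding sequence, 566 bp from the gene's start. Its exon was the first of a transcript that begins inside the gene, 73 bp from the summit. It scored 82.9 in the pooled list, 19.2 in replicate 1 and 62.4 in replicate 2. Summits of 965 just upstream and 910 in an intron of hlh-1 flanked it. hlh-1 was the only host among 12 myogenic regulators and among 25 bHLH genes. unc-119, the gene mutated in the strain, held an exonic summit of 34.3 beside intronic ones of 166, 122 and 55.4. The labels do not say whether the transgene also carries unc-119 sequence, so a contribution of transgene copies at unc-119 cannot be told apart.

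Among other regulators, 3 of 63 ceh homeobox genes were hosts, namely ceh-38 with 87.3, ceh-14 with 44.3 and ceh-8 with 32.5, the lowest score of the whole list. Of 269 nuclear receptor genes, 2 were hosts, nhr-64 with 130 and nhr-66 with 67.2. Of 1309 chemoreceptor genes, 3 were hosts, srh-2, sri-19 and sri-11, with 219, 97 and 61.5. unc-119 was the only host among 29 neuronal genes. No exonic summit fell in 156 cuticle collagen genes, 81 histone genes, 78 ribosomal protein genes, 21 germline genes, 20 intestinal genes, 20 epidermal genes or 12 pharyngeal genes. Over all genes the share of hosts was 1.27%, and no list was tested.

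Several E-boxes were more frequent at exonic summits than in flanking sequence. CAGCTG was present within 50 bp of the summit in 60 members, against 4 members in a window of equal length centred 500 bp to the right (exact two-sided McNemar test, Benjamini-Hochberg adjusted over 10 E-boxes, adjusted p = 1.72e-13). Between the middle of the site and the summit the median distance was 11 bp, with 39 of 60 no more than 25 bp away. CAACTG was present in 61 members at the summit and 14 at the flank (exact McNemar test, adjusted p = 4.88e-09). CACCTG followed with 22 and 5 (exact McNemar test, adjusted p = 0.00304), CAAGTG with 29 and 10 (exact test, adjusted p = 0.00787), CAGATG with 27 and 9 (exact test, adjusted p = 0.00787) and CACATG with 23 and 9 (exact test, adjusted p = 0.0334). CAAATG was present at 34 summits and 25 flanks, CAATTG at 10 and 13, CACGTG at 6 and 8, and CATATG at 4 and 1, and none of these passed. Each E-box was searched on both strands. At least 1 of the 10 was present at 192 exonic summits (73.6%) and 83 flanks (31.8%), against 63.4% and 31.3% over all peaks. An excess at the summit was not particular to exons. CAGCTG was present at 146 summits and 6 flanks of the 813 intronic peaks. For the 2180 intergenic peaks these counts were 290 and 44, and neither pair was tested. Flanks of exonic summits often lie outside exons. With flanks centred in an exon only, the excess at the summit was 21.3 percentage points for CAGCTG (exact McNemar test, adjusted p = 1.55e-05) and 20.4 for CAACTG (exact McNemar test, adjusted p = 2.97e-04), while the other 4 E-boxes that had passed no longer did. That set held 108 of the 261 members, and the excesses were 6.48 points for CACATG, 5.56 for CAGATG, 3.7 for CAAGTG and 1.85 for CACCTG. In the list of replicate 1 alone the excess was 5.93 points for CAGCTG (exact McNemar test, adjusted p = 9.44e-07) and 4.67 for CAACTG (exact McNemar test, adjusted p = 0.00847), and the other 4 did not pass. In that of replicate 2 alone it was 22.2 points for CAGCTG and 14.7 for CAACTG, and CACATG did not pass (exact McNemar test, adjusted p = 0.0835).

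CAGCTG was more frequent at exonic summits than at the rest. It was found in 60 of 261 exonic peaks (23%) and 436 of 2993 other peaks (14.6%), 8.42 percentage points more (two-sided Fisher's exact test, adjusted over 6 measures, adjusted p = 0.00357), with 15.2% over all peaks. By class it was found in 28.8% of coding, 16.8% of 5′ UTR and 25.9% of 3′ UTR members, against 18% of intronic and 13.3% of intergenic peaks. CAGCTG is itself denser in coding sequence, with 390 sites per Mb in coding exons, against 130 in introns and 159 in intergenic sequence, and the part of this in the difference was not tested. The call did not hold in every setting. Against intronic peaks alone the difference was 5.03 points (Fisher's exact test, adjusted p = 0.171), over peaks found in both top lists 8.63 (adjusted p = 0.143 by the same exact test), and over peaks without a gene start within 500 bp 8.54 (adjusted p = 0.0816 by the same exact test). In the list of replicate 1 alone it was -2.65 points (Fisher's exact test, adjusted p = 0.0517), where 641 of the exonic peaks were coding and 7.8% of those held the site.

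The share with CAGCTG also varied with score. With the list cut at its middle by score, 39 of 119 exonic peaks (32.8%) above the cut held it and 21 of 142 (14.8%) below. In 5′ UTRs it was held by 17 of 57 members (29.8%) above and 4 of 68 (5.88%) below. In coding exons it was held by 17 of 47 members (36.2%) above and 13 of 57 (22.8%) below. In 3′ UTRs it was held by 4 of 12 members (33.3%) above and 3 of 15 (20%) below. The intronic peaks had 22.2% above and 13.6% below. The intergenic peaks had 19.1% above and 7.4% below, and none of these pairs was tested.

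Most CAGCTG sites had no summit nearby, in exons as elsewhere. Over all places 538 of 20487 sites (2.63%) lay within 50 bp of a summit. Of 9637 sites in coding sequence, 35 (0.363%) lay within 50 bp of a summit, against 159 of 4325 intronic sites (3.68%) and 313 of 5943 intergenic sites (5.27%). In 5′ UTRs 22 of 324 sites (6.79%, 95% Wilson interval 4.53 to 10.1%) did, and in 3′ UTRs 7 of 243 (2.88%). The order of these shares was that of the summit densities, with 5′ UTRs at the top and coding exons at the bottom. Only the low place of coding exons was clear of the other intervals. The 5′ UTR interval overlapped that of intergenic sites (4.73 to 5.86%). That of 3′ UTRs (1.4 to 5.83%) held that of intronic sites (3.16 to 4.28%).

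CAACTG was found in 23.4% of exonic and 17.5% of other peaks, with 18% over all peaks. The difference of 5.83 points did not pass (Fisher's exact test, adjusted p = 0.0692). CACCTG was found in 8.43% of exonic and 9.52% of other peaks, with 9.43% over all peaks (Fisher's exact test, adjusted p = 0.659). A peak width other than the commonest one of 296 bp was found in 8.05% of exonic and 9.22% of other peaks, with 9.13% over all peaks (Fisher's exact test, adjusted p = 0.659). GAGAGA, a short GA repeat, was found within 50 bp of the summit in 12.5% of coding, 28.8% of 5′ UTR and 25.9% of 3′ UTR members, against 32.2% of intronic and 29.7% of intergenic peaks, as a description without a test.

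Within the exonic peaks of the pooled list no difference between classes passed. CAGCTG was found in 28 of 152 UTR members (18.4%) and 30 of 104 coding members (28.8%), -10.4 points apart (two-sided Fisher's exact test, adjusted over 6 measures, adjusted p = 0.203). It was found in 28 of 157 members in a first or single exon (17.8%) and 32 of 104 in later exons (30.8%), a difference of -12.9 points (Fisher's exact test, adjusted p = 0.101). A score above the members' median was found in 49.3% of UTR and 50% of coding members, and in 51% of first-exon and 48.1% of later-exon members. A top peak in both replicates was found for 42.8% of UTR and 47.1% of coding members, and for 47.8% of first-exon and 39.4% of later-exon members. In the list of replicate 2 alone both CAGCTG differences passed, at -15.6 points for UTR against coding (Fisher's exact test, adjusted p = 0.0176) and -14.2 for first against later exons (Fisher's exact test, adjusted p = 0.0231). In the list of replicate 1 alone they had the opposite sign, at 1.66 and 4.63 points. In that list a score above the members' median was more frequent by 25 points in UTR than in coding members (Fisher's exact test, adjusted p = 6.81e-08) and by 23.6 points in first than in later exons (Fisher's exact test, adjusted p = 7.32e-09).

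Exonic peaks were found on every nuclear chromosome. There were 62 of 773 peaks on chromosome X, 47 of 538 on I, 44 of 468 on V, 42 of 509 on II, 38 of 464 on IV and 28 of 502 on III. The exonic share ran between 5.58% on chromosome III and 9.4% on chromosome V. Coding members were most numerous on X, with 31 of 104, but X also held the most peaks. Of its 773 peaks, 31 were coding, against 19 of 468 on V and 19 of 509 on II. The counts were 16 of 464 on IV, 12 of 538 on I and 7 of 502 on III. Another summit lay within 1 kb of 29 exonic peaks (11.1%) and 337 other peaks (11.3%). No window around an exonic summit had a second exact copy in the genome. An annotated non-coding gene lay within 250 bp of 26 members, a count not made for the other peaks.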

How the data were processed

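The files used were peak lists on the ce11 build. Per the deposited manifest, each replicate and the pooled alignments have a relaxed list of peaks and background made as input for the irreproducible discovery rate (IDR), and the reproducible list was derived from these. The authors' score has no stated scale and was used for ranks and medians within a list. The deposited −log10 q-value had the same highest value, 3.32, in 251 of the 261 members and was not used. Neither aligner, peak caller nor IDR cut-off is given in the sources used here, and read depth is unknown, so intervals cover counting of peaks only.

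Exons came from Ensembl release 115 and sequence from RefSeq WBcel235, which is ce11; coordinates are 1-based. Mitochondrial peaks were left out. Windows spanned 50 bp on either side of the summit. A peak counted as found in a replicate at an overlap of 1 bp or more, and a replicate's top list held its 3254 highest scores. Shares were compared by Fisher's exact test and summit with flank by McNemar's exact test in scipy 1.17.1, with a threshold of 0.05 on adjusted p-values. Peaks and genes are not replicates of a condition, so these tests describe these lists and not the spread between animals. The steps were tested on simulated data.

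Members, lists and tests were chosen with earlier results of these data known. Genes named are the hosts of the 20 highest-scoring members, the 5 highest in each class and in internal coding exons, hosts with several exonic summits, hosts in a gene list, 3 on each side of exon boundaries and, for the sequences, the highest-scoring members with CAGCTG. The chemoreceptor list was corrected after the values were seen, because its name pattern had caught 2 genes of other families. In the lists, 2 symbols had no match.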

Additional observations from a re-analysis of the deposited data

How the results depend on the processing

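No paired analysis was possible because both replicates form 1 group. Apart from the lists of single replicates, 131 of 169 alternatives kept the direction and the side of the threshold, or, for counts, stayed within 1.5 times; the sizes of differences could still move. The list above its median score held 119 exonic, 47 coding, 57 5′ UTR and 12 3′ UTR summits, and peaks in both top lists 116, 49, 58 and 7. The start of another gene lay within 250 bp of 19 members and within 1000 bp of 76. Differences below are in percentage points and the cause was not tested.

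At the summit against its flank, CAATTG turned positive at 25 bp (1.15), at 100 bp (1.15), with exonic flanks (0.926) and above the median score (0.84). CACGTG turned to 0.383 at 100 bp, CATATG to -1.53 with the left flank and CAAATG to -0.862 in both top lists. Calls were lost at 25 bp for CACCTG (3.83) and CAGATG (4.21), and at 100 bp for CACATG (3.45). With exonic flanks they were lost for CAAGTG (3.7), CACATG (6.48), CACCTG (1.85) and CAGATG (5.56), above the median score for CAAGTG (1.68) and CAGATG (8.4), and in both top lists for CAAGTG (5.17) and CACATG (6.03).

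Between exonic and other peaks, CAACTG passed with the peak middle (7.61), at 25 bp (5.73) and without members near a boundary (7.67). CACCTG turned to 0.83 at 100 bp and 0.172 against intergenic peaks. CAGCTG lost its call against intronic peaks (5.03), in both top lists (8.63) and with no start within 500 bp (8.54). UTR against coding, the score difference turned to 2.47 above the median score and 14.6 in both top lists. The alternatives on both top lists, on members near a boundary and on peaks with no start within 500 bp were chosen after seeing the data.

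Replicate 1 and replicate 2 alone gave 793 and 266 exonic summits, 641 and 100 coding summits, 754 and 259 host genes, and 14 and 4 hosts in the muscle lists. The lowest and highest differences with a replicate left out were, against the flank, 5.93 to 22.2 for CAGCTG, 4.67 to 14.7 for CAACTG, 1.26 to 8.27 for CAAGTG, -1.5 to 0.252 for CAATTG, 1.01 to 4.51 for CACATG, 2.14 to 7.89 for CACCTG, -0.752 to 0.252 for CACGTG and 2.27 to 5.64 for CAGATG. In replicate 1 alone the 4 weaker E-boxes lost their calls, and in replicate 2 alone CACATG did. Exonic minus other, they were -2.65 to 8.75 for CAGCTG, -0.719 to 2.94 for CAACTG, -2.23 to 0.713 for CACCTG and -24.2 to -9.83 for score. For UTR minus coding they were -15.6 to 1.66 for CAGCTG and 1.31 to 25 for score, and for first minus later exons -14.2 to 4.63 and 2.35 to 23.6.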
